A study of Mus musculus with 11 samples.

Results

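The 4 Hox clusters of the mouse genome were examined for 3 histone modifications in the stem cells of skeletal muscle. A peak was taken as a Hox peak when it overlapped 1 of 4 windows in the mm9 assembly that the sample descriptions name: HoxA at chr6:52100001-52215000, HoxB at chr11:96050001-96235000, HoxC at chr15:102745001-102875000 and HoxD at chr2:74490001-74610000. This gave 551 peaks of the 212879 peaks in the 8 deposited peak lists, in windows that together span 550 kb. The study profiled satellite cells, the stem cells that lie beside the muscle fibre, by ChIP-seq, the sequencing of DNA from chromatin that was precipitated with an antibody to a modified histone. All cells came from hindlimb muscles of male C57BL/6 mice and were sorted for VCAM+ and against CD31, CD45 and Sca1. Quiescent satellite cells (QSCs) were taken from healthy young mice of 2 to 3 months and from old mice of 22 to 24 months. The activated satellite cells (ASCs) were of the young age, and the sample descriptions give them as sorted QSCs that spent 3 days on a coated surface in medium with horse serum, whereas the paper's results speak of isolation from uninjured and injured muscle and its methods of immediate crosslinking.

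H3K4me3 and H3K27me3 were profiled in all 3 cell states and H3K36me3 in the young QSCs and the ASCs, with 1 library per state and mark. There was thus no replicate and no test between states, and crosslinked cells were frozen until enough had been collected, so that a library may pool several mice. Every comparison below sets 1 list against another, and cell state, sequencing depth and quality of the pull-down cannot be told apart in it. For most counts or shares of peaks that are compared, the same measure over the whole list is given for that reason. Each peak has the score of the peak caller MACS, which grows as the p-value of the peak falls, starts at 50 and is capped near 3100. If the score is 10 times the negative log10 of the p-value, as MACS usually writes it, 50 is a p-value of 1e-05, but the version of the caller is not given in the sources used here. The sorted identity of the cells was not checked against marker genes, since no gene positions in the build of the peaks were given.

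Hox genes encode homeodomain transcription factors that give cells their position along the body axis. In each cluster the genes lie in the order in which they act along that axis, with the low-numbered, anterior genes at one end and the high-numbered, posterior genes at the other. The clusters are classic targets of 2 opposing systems: Polycomb proteins, which place H3K27me3 and keep genes silent, and Trithorax proteins, which place H3K4me3 at gene starts. A site that carries both marks is called bivalent and is usually regarded as silent but poised, whereas H3K36me3 is laid down along the bodies of genes that are being transcribed. In adult tissues Hox genes often keep the pattern of the body region in which the tissue arose.

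The mouse has 39 Hox genes. From the low coordinate upward, HoxA has 11 genes and ends with Hoxa13, HoxB runs from Hoxb13 to Hoxb1 with 10, HoxC from Hoxc13 to Hoxc4 with 9 and HoxD from Hoxd13 to Hoxd1 with 9. This order was read from RefSeq in the assembly GRCm38.p6 and taken to be the same in mm9. Positions were not converted, so the peaks are given by their place in mm9 and by the end of the cluster that they lie near, and no peak is tied to a single gene.

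Polycomb targets are typically rich in the dinucleotide CG, and the 250 bases before the start of 4 Hox genes are shown because they differ widely in their number of CG and come from the anterior, central and posterior parts of HoxA and from the posterior end of HoxD. They are RefSeq sequences on GRCm38.p6, written 5′ to 3′ on the strand of the gene, with each CG in capitals.
Hoxa2 (chr6:52164832-52165081, minus strand): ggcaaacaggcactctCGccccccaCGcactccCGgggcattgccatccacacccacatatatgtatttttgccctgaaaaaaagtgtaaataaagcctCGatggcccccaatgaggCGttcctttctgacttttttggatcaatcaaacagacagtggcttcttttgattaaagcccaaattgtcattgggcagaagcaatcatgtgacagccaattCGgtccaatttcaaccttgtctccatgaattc
Hoxa5 (chr6:52204588-52204837, minus strand): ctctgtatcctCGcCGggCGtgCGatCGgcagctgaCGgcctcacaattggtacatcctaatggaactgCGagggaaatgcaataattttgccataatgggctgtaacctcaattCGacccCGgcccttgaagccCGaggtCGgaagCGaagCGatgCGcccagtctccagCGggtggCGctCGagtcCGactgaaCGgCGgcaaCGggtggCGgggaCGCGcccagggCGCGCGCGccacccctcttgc
Hoxa13 (chr6:52260881-52261130, minus strand): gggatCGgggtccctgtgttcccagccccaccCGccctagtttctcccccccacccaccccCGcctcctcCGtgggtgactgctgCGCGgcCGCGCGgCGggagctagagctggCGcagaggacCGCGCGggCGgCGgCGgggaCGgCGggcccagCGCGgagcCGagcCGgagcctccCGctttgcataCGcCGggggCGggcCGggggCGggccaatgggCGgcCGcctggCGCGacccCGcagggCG
Hoxd13 (chr2:74667975-74668224, plus strand): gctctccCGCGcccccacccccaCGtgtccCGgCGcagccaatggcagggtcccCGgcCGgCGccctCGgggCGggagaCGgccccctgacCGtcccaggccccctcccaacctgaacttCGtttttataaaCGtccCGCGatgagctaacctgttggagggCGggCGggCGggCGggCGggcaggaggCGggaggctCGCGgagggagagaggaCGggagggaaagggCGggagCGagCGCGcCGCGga
The stretch before Hoxa2, an anterior gene that patterns the hindbrain, held 6 CG. That before Hoxa5, a central gene of the cluster, held 28. Those before Hoxa13 and Hoxd13, the posterior genes that pattern the distal limb, held 35 and 31. These 4 do not stand for an order along the clusters. The stretch before Hoxa9, a posterior gene, held 3, and that before the anterior gene Hoxd1 held 24. Of the 39 genes, 22 had an entry, with 24 promoters among them. Their median was 12.5 CG per 250 bases, against 6 over all 32851 promoters of the table, and the Hox range was 2 to 35. A GC content above 50% together with a ratio of observed to expected CG above 0.6 was met by 11 of the 24 Hox promoters (45.8%), against 30.8% of all promoters. By cluster this was 6 of 10 in HoxA, 4 of 10 in HoxD, 1 of 3 in HoxB and 0 of 1 in HoxC, so HoxB and HoxC were barely sampled. CG reads the same on both strands, so the count needs no second strand. These sequences were not placed on the peaks.

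In young QSCs the clusters fell into 2 kinds. H3K27me3 peaks covered 129 kb of HoxB (69.9% of its window) and 89.3 kb of HoxD (74.4%), but 34.4 kb of HoxA (29.9%) and 28.8 kb of HoxC (22.2%). H3K4me3 was distributed the other way, with 39.1 kb in HoxA (34.0%) and 45.5 kb in HoxC (35.0%) against 20.5 kb in HoxB (11.1%) and 24.6 kb in HoxD (20.5%). In HoxA and HoxC much of the H3K4me3 was free of H3K27me3, at 29.1 kb and 38.6 kb, while HoxB had none and HoxD had 0.854 kb. HoxB and HoxD were therefore covered by H3K27me3 with H3K4me3 inside it, and HoxA and HoxC were mosaics.

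**Figure D1:**
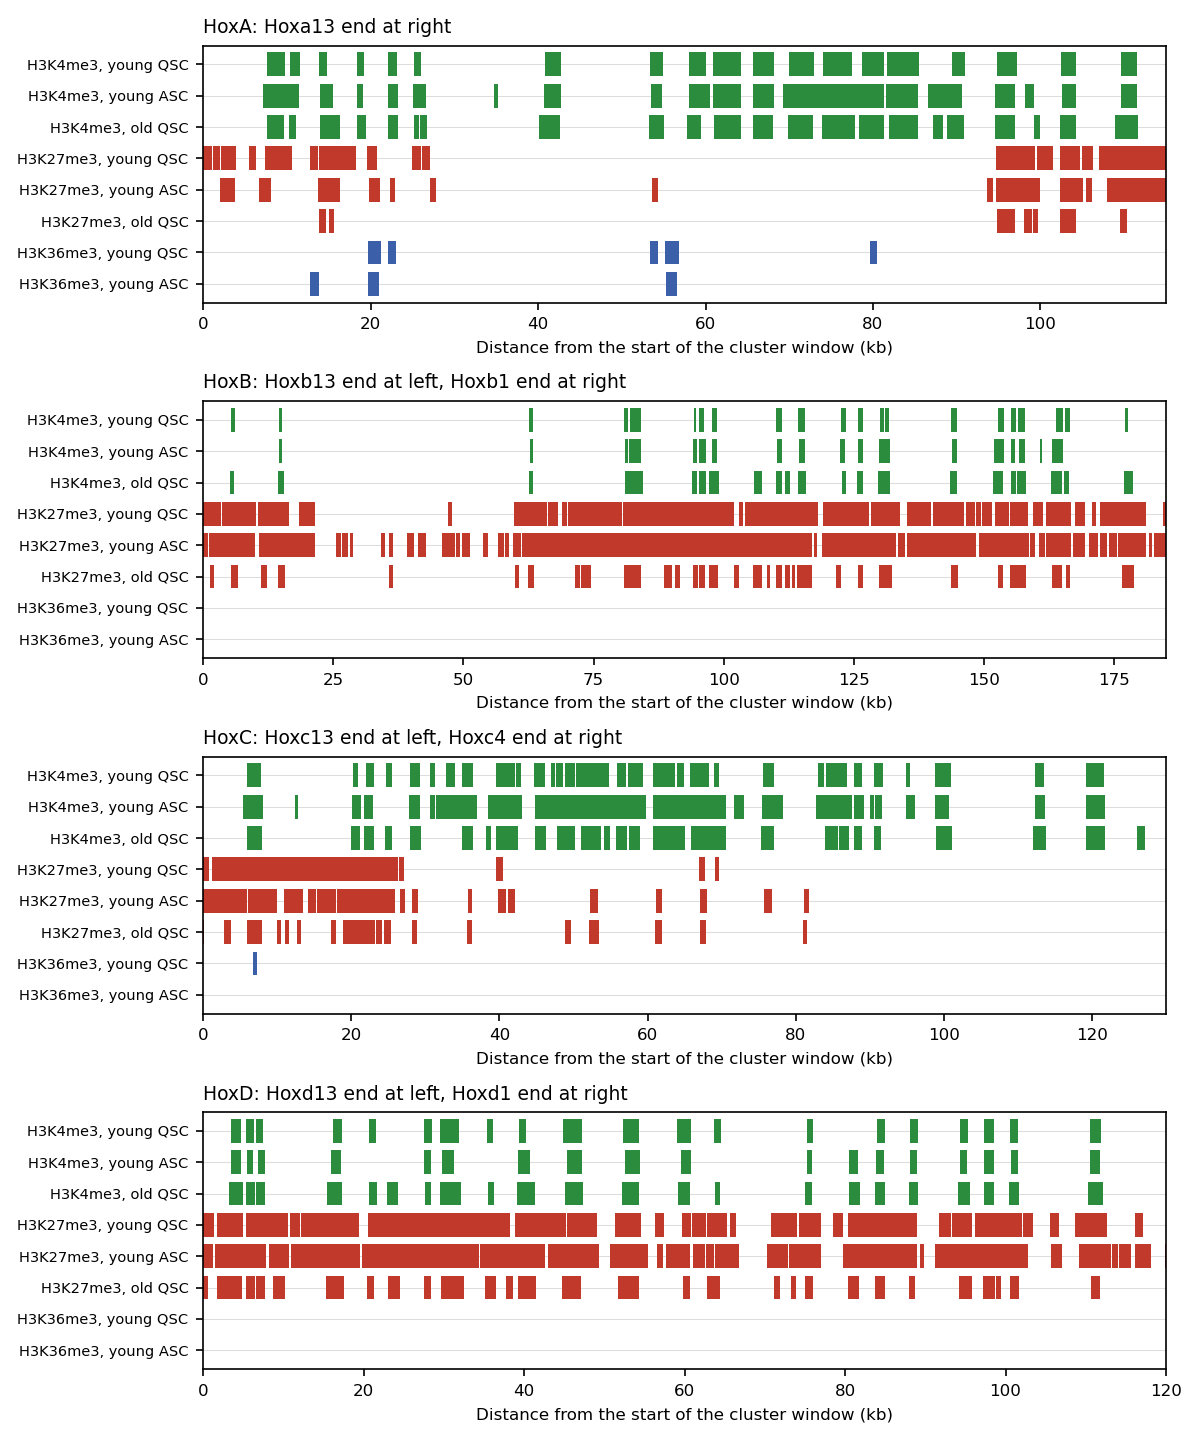
Peaks along the 4 Hox windows, 1 panel per cluster, with the distance from the start of the window (kb) on the horizontal axis and 1 row per mark and cell state. Each bar is 1 peak drawn to scale and cut at the window edge (green H3K4me3, red H3K27me3, blue H3K36me3), and the wide red bars of HoxB and HoxD in young QSCs and ASCs are short in old QSCs, where 0 peaks exceed 5 kb.

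The overlap of single peaks followed the same division. In young QSCs this was largely given by the lengths above, since both measures come from the same peaks. In young QSCs all 22 H3K4me3 peaks of HoxB and all 20 of HoxD shared at least 1 bp with an H3K27me3 peak, against 7 of 19 in HoxA and 7 of 30 in HoxC. Over the 4 clusters this was 56 of 91 H3K4me3 peaks, or 61.5% (Wilson 95% interval 51.3% to 70.9%, counting error only), where the whole list had 14.0%. In ASCs the count was 56 of 79, or 70.9% (60.1% to 79.8%), against 16.9% of the whole list. In old QSCs it was 58 of 92, or 63.0% (52.8% to 72.2%), against 28.6%. The 3 Hox intervals overlap each other, and each lies above the share of its own list.

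The division by cluster was present in all 3 states. HoxB and HoxD had both marks at 18 of 18 H3K4me3 peaks each in ASCs, and at 20 of 21 and 22 of 22 in old QSCs. In HoxA the counts were 9 of 19 in ASCs and 6 of 23 in old QSCs, and in HoxC 11 of 24 and 10 of 26. The Wilson intervals of HoxB and HoxD did not reach those of HoxA and HoxC in any of the states, with the closest pair in ASCs at 82.4% to 100% for HoxB and 27.3% to 68.3% for HoxA. These intervals hold counting error only and treat neighbouring peaks of the same library as independent. They are no test of the division, which was itself drawn from the H3K4me3 and H3K27me3 lists of young QSCs.

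The strength of the H3K4me3 peaks did not follow this division, since HoxC and HoxD were close to each other. In young QSCs the median score was 1317 in HoxA, 234 in HoxC, 218 in HoxD and 110 in HoxB. Seen as ranks, the median peak of HoxA stood above 62.8% of all H3K4me3 peaks of young QSCs and the median peak of HoxB above 25.7%, with HoxC at 38.8% and HoxD at 37.9% between them. The bivalent H3K4me3 peaks of HoxB were also narrow, with a median width of 844.5 bp against 1939 bp in HoxA and 1362 bp in the whole list. The median rank of HoxB was 53.2% in ASCs and 38.2% in old QSCs, and that of HoxA 67.5% and 50.0%. HoxB thus had the lowest median of the 4 clusters in young and in old QSCs, while in ASCs HoxD was lowest at 52.7%. Ties at the score cap limit the ranks from above, and 9 of the 19 HoxA peaks of ASCs reached the cap against 3 of 19 in young QSCs.

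**Figure D2:**
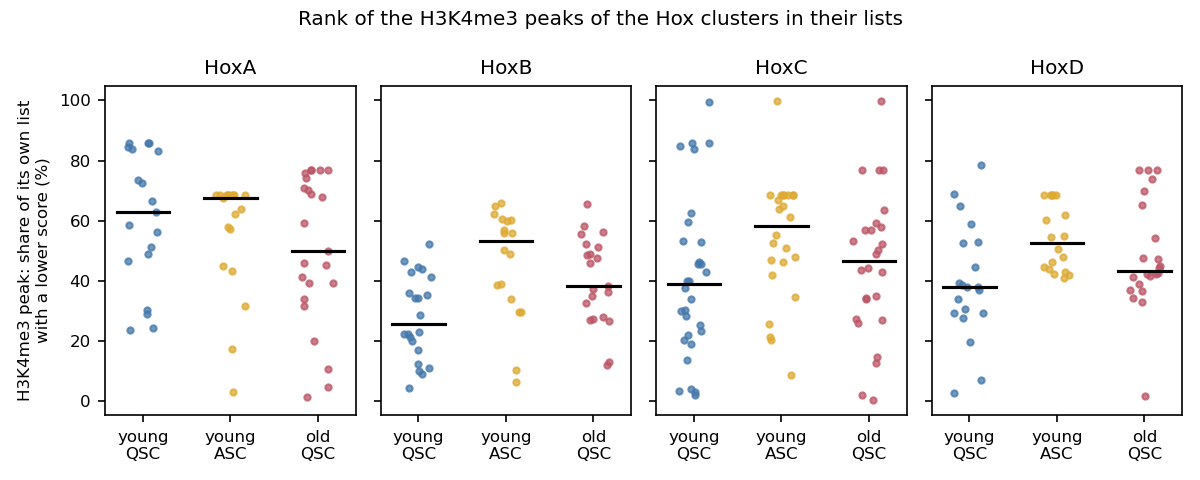
Rank of each H3K4me3 peak of the 4 Hox clusters within the list of its own library, given as the share of that list with a lower score (%), by cluster and cell state. Points are single peaks and the black line is their median, which is 25.7% in HoxB and 62.8% in HoxA in young QSCs, and points that line up at the top of a column are tied at the score cap.

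The middle of HoxA was the longest stretch without any H3K27me3 peak in the clusters of young QSCs. It ran over 67.6 kb at chr6:52127080-52194699, or 58.8% of the window, and held 10 H3K4me3 peaks. Counted from the low coordinate, their scores were 1560, 1317, 531, 3100, 2913, 2959, 3100, 2822, 3100 and 933. Their median width was 2584 bp, against 1109 bp for the other 9 H3K4me3 peaks of the cluster. The strongest run lay in the upper part of the stretch, where 6 neighbouring peaks from chr6:52160883 to chr6:52185500 scored 2822 or more.

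The 2 ends of this stretch differed in kind. On the Hoxa13 side it stopped at an H3K27me3 peak 4700 bp wide with a score of 1754, beginning at chr6:52194700. The corresponding peak began at chr6:52194677 in ASCs (2767 bp, score 2068) and at chr6:52194818 in old QSCs (2111 bp, score 742), so that these 3 starts lay within 141 bp of each other. They are the first peaks of that side with a score of at least 500, and ASCs had a weaker peak before it, 778 bp wide with a score of 146.1 from chr6:52193579, which is where their free stretch ended. On the low-coordinate side the stretch ended at a peak of 887 bp with a score of 73.05, and this side varied between states. In old QSCs the stretch reached down to chr6:52115631 and measured 79.2 kb, with 15 H3K4me3 peaks inside. In ASCs it was split by 1 peak of 736 bp with a score of 68.94 at chr6:52153550-52154285, which left 39.3 kb from chr6:52154286 to chr6:52193578. With peaks of a score of at least 100 alone, the HoxA stretch measured 76.4 kb in young QSCs, 72.5 kb in ASCs and 79.2 kb in old QSCs.

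HoxC was divided at the Hoxc13 end. In young QSCs its H3K27me3 lay almost wholly in 2 peaks, 1 of 17020 bp at chr15:102728763-102745782 that began outside the window and 1 of 25207 bp at chr15:102746138-102771344, the widest H3K27me3 peak of the 4 clusters. The other 4 H3K27me3 peaks of the cluster were 485 to 897 bp wide and scored from 53.33 to 70.32. The longest stretch without any H3K27me3 peak ran from chr15:102814618 to the Hoxc4 edge of the window, 60.4 kb with 9 H3K4me3 peaks, and without those 4 weak peaks it was 103.7 kb with 26. Among the 9 peaks the widest, 2829 bp at chr15:102829095-102831923, had the highest score, 2905, and the lowest score was 53.34. The broad H3K27me3 of the Hoxc13 end stopped at chr15:102771344 in young QSCs and at chr15:102770916 in ASCs. In old QSCs the last peak of that end with a score of at least 200 stopped at chr15:102770379, a spread of 965 bp over the 3 states. The search was also limited by peak width and to positions near the Hoxc13 end, and the spread depends on these limits. Outside them, peaks beyond chr15:102771344 scored up to 300.3 in ASCs and 245.6 in old QSCs. Weaker peaks followed shortly after, up to chr15:102772078 in young QSCs (score 53.33) and chr15:102772237 in ASCs (score 67.94). These 2 boundaries, in HoxA and HoxC, and their limits of score, width and position were chosen after the values were seen.

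Beyond the boundary that young QSCs had in HoxC, ASCs and old QSCs had more H3K27me3 peaks than young QSCs, none of them wider than 1450 bp. There were 4 in young QSCs, 10 in ASCs (557 to 1117 bp, scores from 52.65 to 300.3) and 7 in old QSCs (588 to 1450 bp, scores from 50.92 to 245.6). The whole H3K27me3 lists also held more peaks in ASCs and in old QSCs, 3.29 and 1.51 times the number of young QSCs. In ASCs the stretch free of H3K27me3 at the Hoxc4 end was 48.2 kb, and in old QSCs 48.5 kb. Of the 23 H3K4me3 peaks of HoxC without H3K27me3 in young QSCs, 5 overlapped H3K27me3 in ASCs and 5 in old QSCs (21.7% each). In HoxA 2 of 12 did so in ASCs (16.7%) and 0 of 12 in old QSCs. Over the whole list 15.0% of such peaks did so in ASCs and 11.0% in old QSCs.

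In HoxB and HoxD the longest stretch free of H3K27me3 held no whole H3K4me3 peak in any state. In old QSCs 1 H3K4me3 peak of HoxB, at chr11:96172690-96173593, overlapped no H3K27me3 peak, but it lay outside the longest stretch. The longest stretch free of H3K27me3 was 25.6 kb in HoxB of young QSCs and 4.39 kb in HoxD, and neither held an H3K4me3 peak. The HoxB stretch, at chr11:96071446-96096999, lies near the Hoxb13 end and was bounded by a peak of 3088 bp with a score of 431 and by 1 of 779 bp with a score of 74.89. In ASCs the longest stretch was 5.40 kb in HoxB and 3.39 kb in HoxD. In old QSCs it was 23.5 kb and 8.83 kb, again with 0 H3K4me3 peaks lying wholly inside, though 1 reached partly into the HoxD stretch. With scores of at least 100 the HoxB stretch was longer, 39.1 kb in young QSCs, 11.2 kb in ASCs and 46.7 kb in old QSCs, and the HoxD stretch of young QSCs was 7.27 kb, with 0 H3K4me3 peaks inside in each case.

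Young QSCs were compared with ASCs to see how Hox chromatin differs between quiescence and activation. In the 4 clusters together, H3K27me3 covered 282 kb in young QSCs and 310 kb in ASCs, a ratio of 1.10, whereas the whole lists differed by a ratio of 2.29. By cluster the ratio was 1.19 in HoxB, 1.11 in HoxD and 1.12 in HoxC, and in HoxA it was 0.748, with 34.4 kb in young QSCs and 25.7 kb in ASCs. When the lists were limited to the same number of top-scoring peaks, the log2 ratio of HoxC turned from 0.16 to -0.22. Of the 87 H3K27me3 peaks of young QSCs, 78 overlapped an H3K27me3 peak of ASCs, or 89.7% (81.5% to 94.5%), against 74.3% of the whole list. Conversely, 72 of 101 peaks called in ASCs, or 71.3% (61.8% to 79.2%), overlapped one of young QSCs, against 22.6% of the whole list. The 7 peaks of young QSCs in HoxA without a counterpart made up most of the 9 that were absent from ASCs.

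**Figure D3:**
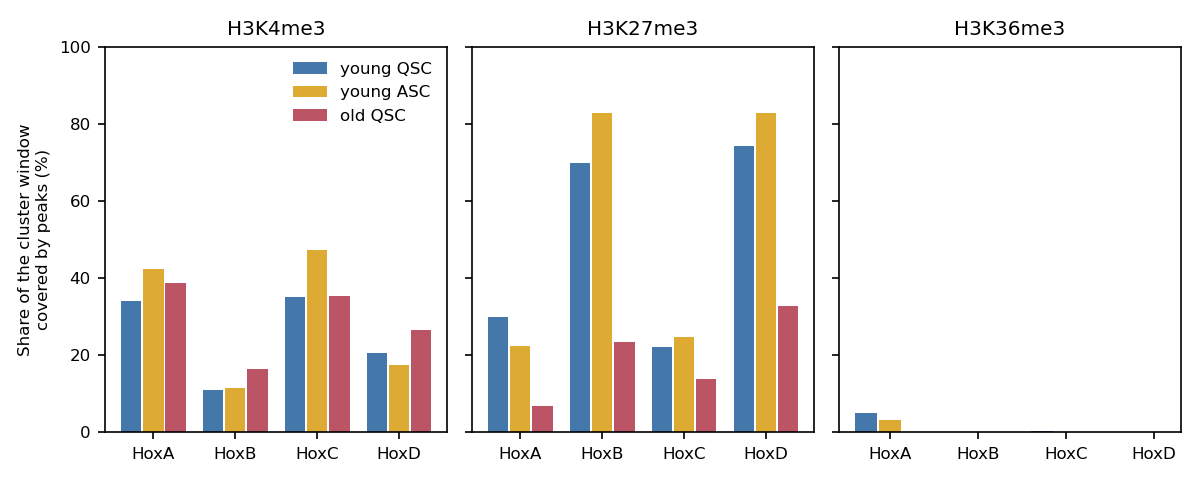
Share of each Hox window covered by peaks of each mark (%, bars from 0), by cluster and cell state, with 1 library per bar and no error bar. H3K27me3 covers 69.9% of HoxB and 74.4% of HoxD in young QSCs against 23.4% and 32.9% in old QSCs, H3K36me3 was not profiled in old QSCs, and HoxB and HoxD have no H3K36me3 peak.

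H3K4me3 covered 130 kb of the clusters in young QSCs and 152 kb in ASCs, a ratio of 1.18 against 1.32 for the whole lists. HoxC had the highest ratio, 1.35, followed by HoxA at 1.25, HoxB at 1.03 and HoxD at 0.849. The log2 ratio of HoxB, 0.04, turned to -0.03 with equal numbers of peaks and was 0.71 with scores of at least 100. Of the 91 H3K4me3 peaks of young QSCs, 84 had a counterpart in ASCs (92.3%, 84.96% to 96.2%), against 78.6% of the whole list. The 7 without one scored from 52.85 to 214.9, with a median of 84.94, against 255 for the peaks that recurred. Of the 79 H3K4me3 peaks of ASCs 69 (87.3%, 78.2% to 93.0%) overlapped one of young QSCs, against 58.7% of the whole list.

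In the parts of HoxA and HoxC with little H3K27me3, neighbouring H3K4me3 peaks of young QSCs were called as single wide peaks in ASCs. The widest Hox peak of H3K4me3 in ASCs was 15068 bp at chr15:102789746-102804813 in HoxC and overlapped 7 separate peaks of young QSCs, which were 618 to 4446 bp wide. The next, 12149 bp at chr6:52169210-52181358 in HoxA, overlapped 3 peaks of 2591 to 3476 bp. Another, 5409 bp wide in HoxC, overlapped 2. The first 2 were wider than 99.99% and 99.95% of the H3K4me3 peaks of ASCs, and all 3 had the score of the cap. HoxB and HoxD had 0 H3K4me3 peaks above 5 kb in any state, and young and old QSCs had 0 in any Hox cluster. Such peaks are rare in the whole H3K4me3 lists too, at 0.494% in young QSCs, 1.53% in ASCs and 0.618% in old QSCs. The HoxA peak overlapped 0 H3K27me3 peaks of ASCs and the HoxC peaks 1 each, with scores of 300 and 102.

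Bivalent Hox sites of young QSCs mostly carried both marks in ASCs as well, at a share close to that of the whole list. Of the 56 H3K4me3 peaks that overlapped H3K27me3 in young QSCs, 46 (82.1%) overlapped both marks in ASCs, 7 overlapped H3K27me3 alone and 3 overlapped H3K4me3 alone. Over the whole list 85.2% of 3446 such peaks overlapped both, 309 overlapped H3K27me3 alone and 130 overlapped H3K4me3 alone. The share with H3K4me3 alone was thus 5.36% in the Hox clusters and 3.77% over the whole list. The 7 with H3K27me3 alone were 3 in HoxB, 3 in HoxD and 1 in HoxC, and 2 of the 3 with H3K4me3 alone were in HoxA. Of the 35 Hox peaks without H3K27me3 in young QSCs, 7 (20%) overlapped H3K27me3 in ASCs, against 15.0% over the whole list.

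The lists held few H3K36me3 peaks at the Hox clusters, and whether other regions of this size hold more was not tested. Young QSCs had 6 peaks among the 20399 of the list (0.0294%), 5 of them in HoxA. ASCs had 3 among 42880 (0.0070%), all in HoxA. In HoxA of young QSCs they covered 5.79 kb and had scores of 113.8, 101.4, 72.60, 226.5 and 65.65 from the low coordinate upward. Those of ASCs covered 3.65 kb and scored 83.03, 159.2 and 126.9. The peaks at chr6:52119644-52121194 and chr6:52155186-52156777 in young QSCs overlapped 1 ASC peak each, and the latter lies in the stretch free of H3K27me3. The single HoxC peak, 548 bp with a score of 53.82, had no counterpart, so that 2 of 6 young QSC peaks recurred, against 59.2% of the whole list. HoxB and HoxD had 0 peaks in both states, which means that no region there passed the threshold of the caller and not that the mark was shown to be absent.

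In covered length of H3K27me3 the clusters differed more between young and old QSCs than between young QSCs and ASCs. Each cluster had a lower covered length in old than in young QSCs. Relative to the whole lists the 2 comparisons were close. The clusters held 1.32% of the H3K27me3 length of the list in young QSCs, 0.635% in ASCs and 0.644% in old QSCs. The 4 clusters held 87 H3K27me3 peaks in young QSCs and 92 in old QSCs, but these covered 282 kb in young and 109 kb in old. Over the whole lists the number of peaks was 1.51 times as high in old QSCs. The ratio of covered length was 0.386, a log2 value of -1.37, where the whole lists had a ratio of 0.789 and a log2 value of -0.34. By cluster the log2 ratio was -2.10 in HoxA, -1.58 in HoxB, -1.18 in HoxD and -0.69 in HoxC. The number of peaks did not move in one direction, with 37 in both states in HoxB, 26 in young and 30 in old QSCs in HoxD, 18 and 7 in HoxA and 6 and 18 in HoxC. With peaks under 1 kb apart merged, the clusters held 30 in young and 63 in old QSCs, while the number over the whole lists was 2.005 times as high in old QSCs. The log2 ratio of HoxC was -1.51 when only scores of at least 100 were kept, and with windows 10 kb shorter at each end that of HoxA was -1.36.

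Old QSCs lacked the wide peaks in all 4 clusters. The median width of an H3K27me3 Hox peak was 1834 bp in young QSCs, 1506 bp in ASCs and 979.5 bp in old QSCs. In HoxC, where young QSCs had 2 wide peaks and 4 narrow ones, the medians of young and old QSCs were close, at 861 and 870.5 bp. Peaks above 5 kb numbered 20 in young QSCs and 20 in ASCs, where they made up 61.6% and 60% of the summed width, and 0 in old QSCs. The widest peak of HoxB was 12533 bp in young QSCs, 18963 bp in ASCs and 3299 bp in old QSCs. For HoxD these widths were 17716, 14563 and 3018 bp, for HoxC 25207, 17679 and 2787 bp, and for HoxA 15255, 13481 and 2111 bp. The whole H3K27me3 list of old QSCs was narrower too, with 0.0964% of its peaks above 5 kb against 4.80% in young QSCs and a median of 838 bp against 1228 bp. The whole list of ASCs had 2.21% of its peaks above 5 kb and a median of 866 bp.

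**Figure D4:**
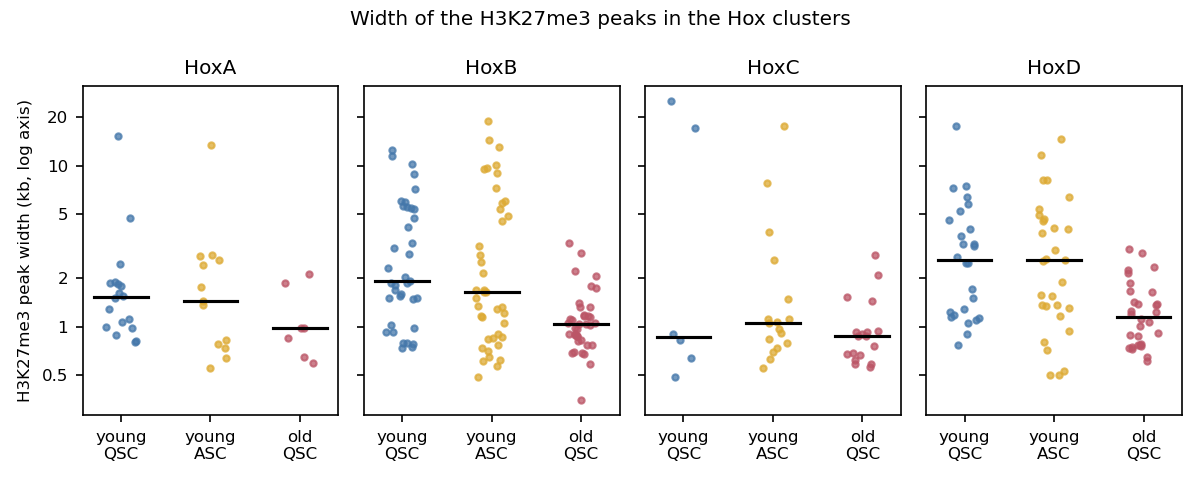
Width of every H3K27me3 peak of the 4 Hox clusters (kb, log axis) by cluster and cell state, uncut at the window edges. Points are single peaks and the black line is their median, and 20 peaks lie above 5 kb in young QSCs, 20 in ASCs and 0 in old QSCs.

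The old peaks lay inside the young ones. Of the 92 H3K27me3 peaks of old QSCs, 85 overlapped an H3K27me3 peak of young QSCs, or 92.4% (85.1% to 96.3%), against 26.1% of the whole list. Seen from the young list, 45 of 87 peaks (51.7%, 41.4% to 61.9%) overlapped an old one, against 31.8% of the whole list, and the fewest did so in HoxA, 5 of 18. Among the old peaks, all 7 in HoxA, all 30 in HoxD and 36 of 37 in HoxB did so, against 12 of 18 in HoxC. The 7 without a counterpart scored from 50.92 to 87.65. The old peaks covered 34.4% of the summed width of the young ones, against 24.5% over the whole list. Each of the 20 young peaks above 5 kb was overlapped by at least 1 old peak, with a median of 3 old peaks within it and 30.3% of its length covered. Over the whole list 470 of 560 such peaks were overlapped, with a median of 33.1% covered. ASC peaks covered a median of 98.9% of the same 20 Hox peaks, close to the 97.4% of the whole list, where 553 of 560 such peaks were overlapped.

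The H3K27me3 of old QSCs lay largely on H3K4me3. In young QSCs 61.2 kb of the clusters lay under both marks and 220.5 kb under H3K27me3 alone, and in ASCs 65.2 kb and 245 kb. In old QSCs 72.8 kb lay under both and 35.9 kb under H3K27me3 alone. The share of the H3K27me3 length that lay on H3K4me3 was thus 21.7% in young QSCs, 21.0% in ASCs and 67.0% in old QSCs. The same shares over the whole lists were 20.8%, 12.9% and 45.8%. By cluster, old against young, it was 83.1% against 29.1% in HoxA, 61.2% against 15.9% in HoxB, 61.1% against 24.1% in HoxC and 72.7% against 26.6% in HoxD.

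The share of old QSCs was also above that of young QSCs on the same H3K4me3 peaks. When the old H3K27me3 peaks were set on the H3K4me3 peaks of young QSCs, 52.5% of their length in the clusters lay on H3K4me3, against 32.6% over the whole list, and 56 of the 92 peaks (60.9%, 50.7% to 70.2%) overlapped one, against 30.7%. With scores of at least 100 in all lists the shares were 17.5% in young QSCs, 20.6% in ASCs and 70.4% in old QSCs. Counted as peaks, 61 of the 92 old H3K27me3 peaks (66.3%, 56.2% to 75.1%) overlapped H3K4me3, against 41.3% of the whole list. For young QSCs this was 40 of 87 (46.0%, 35.9% to 56.4%) against 27.7%, and for ASCs 42 of 101 (41.6%, 32.5% to 51.3%) against 13.9%. How far the narrower peaks of the old list set these shares was not tested.

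**Figure D5:**
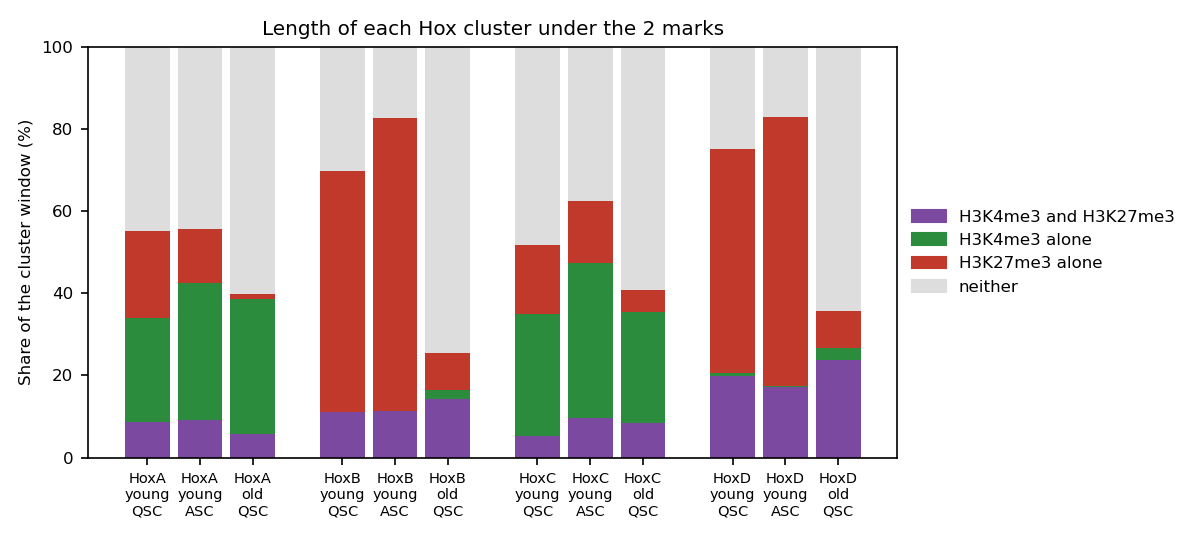
Length of each Hox window (% of the window, stacked from 0 to 100) under both marks, under H3K4me3 alone, under H3K27me3 alone and under neither, by cluster and cell state. The part under H3K27me3 alone is 58.7% of HoxB in young QSCs and 9.09% in old QSCs, while the part under both is 11.1% and 14.3%.

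The bivalent sites themselves for the most part carried both marks in old QSCs too. Of the 56 Hox H3K4me3 peaks with H3K27me3 in young QSCs, 51 (91.1%) overlapped both marks in old QSCs and 5 (8.93%) overlapped H3K4me3 alone. Over the whole list 79.9% overlapped both and 12.6% overlapped H3K4me3 alone. All 22 of HoxB and all 20 of HoxD were among the 51, and the 5 were 3 in HoxA and 2 in HoxC. Of the 35 sites without H3K27me3, 5 (14.3%) overlapped H3K27me3 in old QSCs, all in HoxC, against 11.0% over the whole list. Another 5 of HoxC (14.3% of the 35) overlapped neither mark in old QSCs, against 18.6% over the whole list, and these scored 52.07 to 92.78 in young QSCs.

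H3K4me3 covered 130 kb in young and 153 kb in old QSCs, a ratio of 1.18 against 1.05 over the whole lists. The ratio was 1.48 in HoxB, 1.30 in HoxD, 1.14 in HoxA and 1.01 in HoxC. HoxB had 22 peaks in young and 21 in old QSCs, and a typical peak (the median) was 844.5 bp wide in the former and 1347 bp in the latter. The log2 ratio of HoxB, 0.57, was 1.23 when only scores of at least 100 were kept. Of the 91 young peaks 86 recurred in old QSCs (94.5%, 87.8% to 97.6%), against 80.5% of the whole list. When the H3K4me3 peaks of the 3 states were merged into 89 sites, 65 were called in all 3 states, 7 in ASCs alone, 6 in old QSCs alone and 0 in young QSCs alone. The share in all 3 states was 73.0%, against 42.4% of the 40892 sites over the whole lists, where 30.6% were in ASCs alone, 9.06% in old QSCs alone and 8.31% in young QSCs alone.

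The outer boundaries of H3K27me3 were not at the window edges. At HoxC of young QSCs the peak at the Hoxc13 edge reached 16238 bp beyond it, that of ASCs 11705 bp and that of old QSCs 555 bp. In the 200 kb beyond the Hoxc4 edge young QSCs had 0 H3K27me3 peaks, ASCs 6 and old QSCs 2. At the Hoxa13 edge of HoxA a peak reached 7253 bp outward in young QSCs and 6345 bp in ASCs, while no peak of old QSCs crossed it. Below the Hoxb13 edge the nearest 20 kb were covered over 18.5 kb in young QSCs, 19.8 kb in ASCs and 2.26 kb in old QSCs. At the Hoxd13 edge of HoxD the crossing peaks reached 3199 bp, 6862 bp and 41 bp outward in young QSCs, ASCs and old QSCs.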

How the data were processed

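ChIP-seq was analysed in 8 libraries, with 1 per cell state and mark. The 3 input libraries were not analysed here on their own. Per the labels, reads were aligned with Bowtie to mm9. Versions, read numbers and the treatment of duplicates are not given in the sources used here. The authors called peaks with MACS per library against input, and the deposited lists give the position of each peak and its score, which follows the negative log10 of the p-value. Depth is unknown. Starts were converted to count from 1. Peaks were cut at the window edges for covered length and taken whole for width. An overlap needed 1 bp. Longest stretches, their bounding peaks and the widest peaks were named by rule. Other peaks were picked after their values were seen. Wilson intervals came from scipy 1.17.1, figures from matplotlib 3.10.9, and covered lengths were checked against bedtools 2.31.1. Overlap code was tested on simulated data. Members and lists were chosen with earlier results of these data known.

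The alternatives were scores of at least 100, equal numbers of top-scoring peaks per mark, and merging of peaks under 1 kb apart. Further ones were an overlap of 50% of the shorter peak, and windows narrowed or widened by 10 kb at each end.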

Additional observations from a re-analysis of the deposited data

How the results depend on the processing

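Lengths, counts, ratios and shares of length were regarded as moved when they differed by more than 1.5-fold, and shares of peaks when they left the Wilson interval. Of 274 recomputed values, 255 did not move, 16 moved and 3 changed direction. Some of these could not move, so the tally is no measure of stability. Merging peaks under 1 kb apart cannot change a longer free stretch. Equal numbers leave the shortest list of each mark as it is. For young QSCs, setting H3K27me3 on the H3K4me3 peaks of young QSCs is the main analysis itself. Merging peaks under 1 kb apart left 30 H3K27me3 peaks in young QSCs, 35 in ASCs and 63 in old QSCs, so that the near-equal 87 and 92 of young and old QSCs drew apart, and equal numbers of top-scoring peaks left 66 in ASCs. With scores of at least 100, H3K36me3 of young QSCs kept 3 peaks over 4.03 kb, and the longest stretch without H3K27me3 was 103.7 kb in HoxC of young QSCs and 72.5 kb in HoxA of ASCs, since fewer weak peaks interrupt it. The log2 ratios that changed sign were those of H3K4me3 in HoxB, ASCs over young QSCs, at -0.029 with equal numbers, of H3K4me3 in HoxC, old over young QSCs, at -0.026 with narrowed windows, and of H3K27me3 in HoxC, ASCs over young QSCs, at -0.22 with equal numbers. The cause was not tested. The share of H3K27me3 length on H3K4me3, whose alternatives were added after seeing the data, did not differ by more than 1.5-fold in any state. It has no interval, and in old QSCs it fell from 67.0% to 52.5% on the H3K4me3 peaks of young QSCs. No paired analysis was possible because each state and mark has 1 library and no test was made. Unknown depth limits every comparison between lists, and a region without a peak may hold the mark below the threshold of the caller.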
